A study of Homo sapiens with 4 samples.

Results

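Lipocalin 2 (LCN2) and 9 S100 genes (S100A8, S100A9, S100A2, S100A4, S100A6, S100A10, S100A14, S100A16 and S100P) were followed in 4 lines made from PC-3, a prostate cancer cell line of epithelial origin that was established from a metastasis. They are 10 of the 19775 genes measured, read by 13 of 54613 probe sets, namely every probe set whose platform annotation gives 1 of these symbols alone; S100A8, S100A6 and S100A10 have 2 probe sets each and the other 7 genes have 1. The genes were chosen with their values on these arrays known, so the values are descriptions and no test of a member is given. RNA of each line was hybridised to 1 Affymetrix Human Genome U133 Plus 2.0 array. The short-telomere group held mock, the control line with basal hTERT, and mock/cre+, its counterpart named for Cre recombinase, also with basal hTERT. Of the lines with long telomeres, LhTERTL overexpressed hTERT, the catalytic subunit of telomerase, whereas LhTERTL/cre+ was back at basal hTERT. All 4 share the PC-3 background, and the labels do not say whether a line is 1 clone.

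S100 proteins are small calcium-binding proteins with paired EF-hand motifs that act as dimers inside cells and, once released, as signals to neighbouring cells. S100A8 and S100A9 join to form calprotectin, which is abundant in neutrophils, is induced in inflamed epithelia and starves microbes of zinc and manganese. Lipocalin 2 is not an S100 protein, but is released by the same inflamed epithelia and neutrophils and captures the siderophores with which bacteria collect iron. Most S100A genes lie side by side in a cluster on chromosome 1, while S100P lies on chromosome 4 and LCN2 on chromosome 9.

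The promoters of the 4 genes on which the results turn are shown as the 250 bases upstream of a RefSeq transcription start (GRCh38.p14), written 5′ to 3′ on the strand of the gene. LCN2 (chr9:128149203-128149452, plus strand), S100A14 (chr1:153616326-153616575, minus strand) and S100A2 (chr1:153565845-153566094, minus strand, the first of 2 listed starts) were highest on the LhTERTL array, and S100A9 (chr1:153357604-153357853, plus strand) was lower on both long-telomere arrays. Capitals mark matches to any of 5 motifs: TATAAA, the TATA box, on the gene's strand, and on both strands GGGA and CC parted by 4 bases for NF-kappaB, TTGCNNAA for C/EBP, TGANTCA for AP-1 and TTCCNGGAA for STAT factors.
LCN2: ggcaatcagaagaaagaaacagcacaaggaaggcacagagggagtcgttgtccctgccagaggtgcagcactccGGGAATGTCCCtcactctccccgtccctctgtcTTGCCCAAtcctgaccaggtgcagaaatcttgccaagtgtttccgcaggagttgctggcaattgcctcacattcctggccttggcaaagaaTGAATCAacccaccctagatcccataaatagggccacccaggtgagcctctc
S100A14: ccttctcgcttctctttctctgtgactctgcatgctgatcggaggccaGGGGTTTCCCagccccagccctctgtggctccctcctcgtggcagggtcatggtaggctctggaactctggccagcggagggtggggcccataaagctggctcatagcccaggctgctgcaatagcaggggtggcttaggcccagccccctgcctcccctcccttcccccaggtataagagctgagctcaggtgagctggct
S100A2: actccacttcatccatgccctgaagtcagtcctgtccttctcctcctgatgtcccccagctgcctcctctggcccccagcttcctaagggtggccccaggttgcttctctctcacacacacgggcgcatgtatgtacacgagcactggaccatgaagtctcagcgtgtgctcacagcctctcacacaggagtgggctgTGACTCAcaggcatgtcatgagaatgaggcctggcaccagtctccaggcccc
S100A9: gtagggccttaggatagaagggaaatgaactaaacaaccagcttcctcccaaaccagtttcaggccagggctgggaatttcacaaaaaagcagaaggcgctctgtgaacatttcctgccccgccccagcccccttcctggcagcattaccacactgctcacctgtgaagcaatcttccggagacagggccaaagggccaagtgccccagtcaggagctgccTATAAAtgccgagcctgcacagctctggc
LCN2 held the letters of the NF-kappaB motif on both strands in overlapping positions, at 176 to 166 bases before the start, with a C/EBP match at 143 to 136 and an AP-1 match at 52 to 46. S100A14 held an NF-kappaB match at 202 to 193 bases before the start, S100A2 an AP-1 match at 52 to 46, and S100A9 a TATA box at 29 to 24. Of 35097 RefSeq promoters of this length, 22.6% held the NF-kappaB letters, 9.05% the C/EBP, 6.57% the AP-1, 6.804% the TATA and 0.969% the STAT letters. Over all listed starts of the 10 genes, NF-kappaB letters occurred in 5 genes (S100A2, S100A4, S100A10, S100A14 and LCN2) and a TATA box in 4 (S100A8, S100A9, S100A4 and S100P). S100A4 and S100A10 therefore also hold the NF-kappaB letters, and neither varied much between arrays. The counts are of genes, some with several starts, whereas the shares of RefSeq promoters are per promoter, so the 2 are not like measures. S100A2 held the NF-kappaB letters only at its other listed start, which is not shown. These matches are a description of sequence, not of binding.

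Every probe set had been centred on its median over the 4 arrays before deposit, so a value is a log2 difference from that median and no expression level can be given. The medians of the 4 arrays lay between -0.01 and 0.01 and their SDs between 0.179 and 0.335, the widest being LhTERTL. As a check of the labels, 1 of the 2 TERT probe sets stood at 3.54 on the LhTERTL array and between -0.16 and 0.12 on the other 3 arrays. The other TERT probe set stood at -0.66 on LhTERTL and between -0.06 and 0.10 elsewhere. Whether a line held fewer cells expressing a gene or less of its RNA per cell cannot be told apart in such bulk RNA. Epithelial markers (KRT8, KRT18, KRT19, EPCAM, CDH1, KRT5 and KRT14) did not move together. CDH1 stood at 0.94 on LhTERTL and -0.74 on LhTERTL/cre+ and EPCAM at 0.47 and -0.68, the arrays on which LCN2 and S100A14 were highest and lowest, while KRT19 stood at -0.34 and 0.26. The CDH1 values average 2 probe sets that disagreed. They ran from -0.21 to 2.09 in LhTERTL minus mock and from -1.68 to 0.15 in LhTERTL/cre+ minus mock/cre+. The mean of the epithelial markers lay between -0.16 and 0.15 on the 4 arrays and that of 7 measured leukocyte markers between -0.02 and 0.08, and the part of either in the results was not tested. Since levels are unknown, these values cannot show whether any of the markers was at 0.

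**Figure D1:**
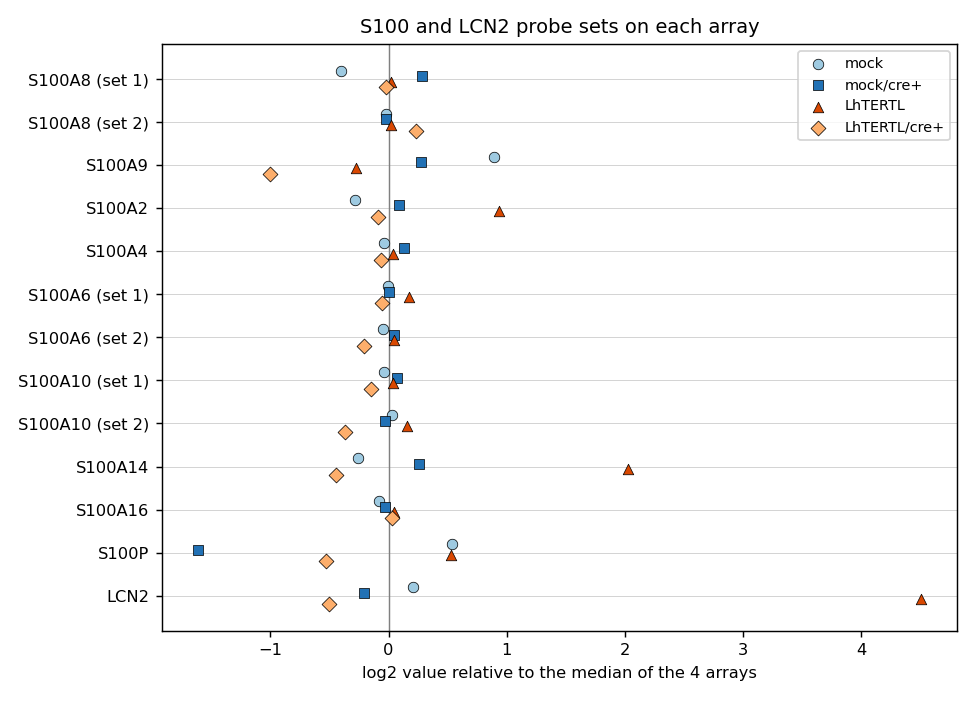
Log2 value of each of the 13 probe sets on the 4 arrays, relative to the median of that probe set over the arrays; each point is 1 array. LCN2, S100A14 and S100A2 stand furthest right on the LhTERTL array (4.51, 2.03 and 0.93), S100P furthest left on mock/cre+ (-1.61), and for S100A9 both long-telomere arrays lie left of both short-telomere arrays.

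By its lead over the mean of the other 3 arrays, LCN2 was the gene that stood highest on the LhTERTL array. Its value was 0.21 in mock, -0.21 in mock/cre+, 4.51 in LhTERTL and -0.50 in LhTERTL/cre+. The 3 lines with basal hTERT lay within 1.63-fold of each other, and LhTERTL lay far above all of them. Raised hTERT was present on the LhTERTL array alone, so it cannot be told apart from other traits of that line or array. LhTERTL exceeded mock by 4.30 on the log2 scale, a 19.7-fold difference, and LhTERTL/cre+ lay 5.01 below LhTERTL, a 32.2-fold difference. In the pair of Cre-named lines, LhTERTL/cre+ differed from mock/cre+ by -0.29. Ranked by LhTERTL less the mean of the other 3 arrays, LCN2 came at position 1 of 19775 genes, and its range over the arrays came at position 5. By the rise from mock to LhTERTL alone it came at position 9. As a member it was chosen with these values known, so the ranks are descriptions. The mean long minus short difference was 2.002 ± 1.73 (moderated SE, n = 2 per group), and the 2 long-telomere arrays fell on either side of both short ones. Here and below n counts lines and not replicate cultures, so the SE also holds their differences in Cre naming and hTERT. Without LhTERTL it was -0.50, and without LhTERTL/cre+ it was 4.51. Quantile normalization of the arrays a second time, which forces the 4 arrays to an equal spread, brought LhTERTL minus mock to 2.48 and the long minus short difference to 1.01. This step was run on the median-centred values, so it ranks differences from the median and not expression levels.

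S100A14, an S100 protein mainly of epithelia, had the same order of extremes as LCN2 with a smaller size. It stood at -0.26 in mock, 0.26 in mock/cre+, 2.03 in LhTERTL and -0.45 in LhTERTL/cre+. LhTERTL was 4.88-fold above mock and 5.56-fold above LhTERTL/cre+, and LhTERTL/cre+ was 1.63-fold below mock/cre+. The 2 Cre-matched pairs thus went opposite ways, at 2.29 and -0.71, and the long minus short difference was 0.79 ± 0.88 (moderated SE, n = 2 per group). Without LhTERTL that difference was -0.45, and after a second quantile normalization the pairs stood at 1.43 and -0.82.

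S100A2, a mainly nuclear S100 protein of basal epithelial cells, was also highest on LhTERTL. Its values were -0.29 in mock, 0.09 in mock/cre+, 0.93 in LhTERTL and -0.09 in LhTERTL/cre+. LhTERTL lay 2.32-fold above mock and 2.03-fold above LhTERTL/cre+, while LhTERTL/cre+ and mock/cre+ were 1.14-fold apart in the other direction. Its long minus short difference of 0.52 ± 0.39 (moderated SE, n = 2 per group) was 0.005 without LhTERTL. LhTERTL minus mock was 0.91, under 2-fold, after a second quantile normalization.

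Of the 10 genes, LCN2 and S100A14 were at least 2-fold higher on LhTERTL than on each of the other 3 arrays, a distance reached by 0.839% of all genes. After a second quantile normalization the lead over the next array was 2.48 for LCN2 but 0.92, under 2-fold, for S100A14. LhTERTL was the highest array for 6 of the 10, against 27.6% of all genes, although for S100A6, S100A10 and S100A16 it led the next array by under 0.1 on the log2 scale. For S100A6 and for S100A10 this order holds for the mean of 2 probe sets, of which 1 was highest on mock/cre+. Against mock alone, 3 members were at least 2-fold higher on LhTERTL and 1 was lower, with 2.24% and 0.86% of all genes in those directions. Between the 2 long-telomere lines, 4 of the 10 (LCN2, S100A14, S100P and S100A2) were at least 2-fold lower in LhTERTL/cre+ than in LhTERTL and 0 were higher, with 2.29% and 1.52% of all genes. Because the members were picked with these differences known, the counts are not evidence that the family moves as a group. The median member differed by -0.54 in that comparison and the median of all genes by 0.01. LhTERTL/cre+, which had long telomeres without raised hTERT, was at least 2-fold below mock for S100A9 (-1.89) and S100P (-1.06) and above it for 0 members, with 0.121% and 0.314% of all genes. The 2 Cre-matched pairs went opposite ways in 8 of the 10 members and in 57% of all genes.

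S100A9 was 1 of 2 members whose arrays parted by telomere length, the other being S100A16, whose difference was much smaller. That is 1 of the 10 members in each direction, about the share of all genes (11.7% with long telomeres lower and 11.4% higher). S100A9 stood at 0.89 in mock, 0.27 in mock/cre+, -0.27 in LhTERTL and -1.002 in LhTERTL/cre+. Both long-telomere arrays lay below both short-telomere arrays, as for 11.7% of all genes, and in each telomere group the Cre-named line was the lower. The gene was 2.24-fold lower in LhTERTL than in mock and 2.42-fold lower in LhTERTL/cre+ than in mock/cre+. Its long minus short difference was -1.22 ± 0.35 (moderated SE, n = 2 per group). It ran from -0.86 without LhTERTL/cre+ to -1.58 without LhTERTL, and after a second quantile normalization the pairs stood at -1.89 and -1.50. At least a 2-fold fall in both pairs was seen for 0.0253% of all genes (5 genes), of which S100A9 is 1.

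S100A9 is also the only member in the authors' deposited list of lower probe sets, and their list of higher ones holds none. The headings LhTERTL and mock/cre+ are exchanged in the authors' deposited lower list relative to the series table, for 100% of its probe sets, so its values for S100A9 read 0.27 under LhTERTL and -0.27 under mock/cre+. Under those headings the pair differences would be -0.62 and -0.73, still lower with long telomeres in each pair, but the groups would overlap. The series table was followed here because TERT stands high on its LhTERTL array.

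S100A8, the partner of S100A9 in calprotectin, did not share that order. Its first probe set read -0.40 in mock, 0.29 in mock/cre+, 0.02 in LhTERTL and -0.02 in LhTERTL/cre+. The second read -0.02 in mock, -0.02 in mock/cre+, 0.02 in LhTERTL and 0.24 in LhTERTL/cre+. The 2 probe sets disagree on which array is highest, and averaged over them the gene spanned 1.27-fold over the 4 arrays, against 3.72-fold for S100A9. Averaging narrowed that span, since the first probe set alone spanned 0.69 on the log2 scale, and S100A9 has only 1 probe set. The pair differences of S100A8 were 0.23 without Cre and -0.02 with it, where those of S100A9 were -1.17 and -1.28. Without levels it is not known whether S100A8 was above background in these lines.

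S100P, first purified from placenta and a ligand of ezrin and of the receptor RAGE, was low on 1 control array. Its values were 0.53 in mock, -1.61 in mock/cre+, 0.53 in LhTERTL and -0.53 in LhTERTL/cre+. The lines without Cre in their names were level, and both Cre-named lines lay below them. The gene was 4.42-fold lower in mock/cre+ than in mock and 2.08-fold lower in LhTERTL/cre+ than in LhTERTL, so the second Cre-named line was itself 2.12-fold above the first. Ranked by the fall from mock to mock/cre+, it came at position 5 of 19775 genes. It was the 1 member at least 2-fold lower there, with 0 higher, beside 0.647% and 2.02% of all genes. In the Cre-named pair it was the 1 member at least 2-fold higher with long telomeres and S100A9 the 1 lower, beside 0.394% and 1.18% of all genes. The long minus short difference was 0.54 ± 0.83 (moderated SE, n = 2 per group), and -0.53 without mock/cre+. A second quantile normalization, run on the median-centred values, moved LhTERTL minus mock from -0.01 to -0.69. Because it acts on differences and not on levels, it cannot show whether those 2 lines are equal. They are called level on the deposited values alone.

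**Figure D2:**
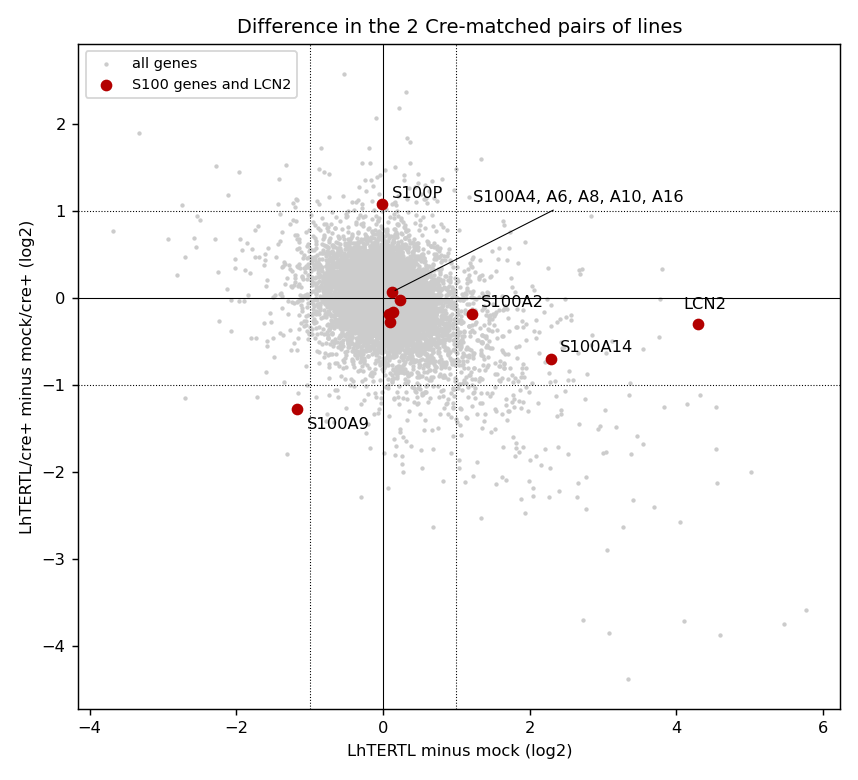
Difference between long- and short-telomere lines without Cre (horizontal) and with Cre (vertical), log2, for all 19775 genes in grey and the 10 members in red; dotted lines mark 2-fold. S100A9 lies in the lower left at -1.17 and -1.28, LCN2, S100A14 and S100A2 lie to the right with vertical values between -0.71 and -0.18, and S100P lies at -0.01 and 1.08.

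The other 4 S100 members varied little, and none of them spanned as much as 1.5-fold over the 4 arrays. S100A4, which binds non-muscle myosin and is tied to cell motility, read -0.04 in mock, 0.13 in mock/cre+, 0.04 in LhTERTL and -0.06 in LhTERTL/cre+. S100A16 read -0.08 in mock, -0.03 in mock/cre+, 0.04 in LhTERTL and 0.03 in LhTERTL/cre+, a span of 1.09-fold. Both long-telomere arrays of S100A16 lay above both short ones, as for 11.4% of all genes, but by a margin of 0.07 in the Cre-named pair. S100A6, calcyclin, averaged -0.02 in mock, 0.03 in mock/cre+, 0.11 in LhTERTL and -0.13 in LhTERTL/cre+. S100A10, which binds annexin A2 at the membrane without needing calcium, averaged -0.004 in mock, 0.02 in mock/cre+, 0.10 in LhTERTL and -0.26 in LhTERTL/cre+. Both probe sets of S100A6 and both of S100A10 were lowest on LhTERTL/cre+. With S100A8 these make 5 of 10 members within 1.5-fold, where 79.3% of all genes are, and the other 5 members spanned at least 2-fold, where 7.16% of all genes do. S100A8 is counted here by the mean of its probe sets, the first of which alone spanned over 1.5-fold.

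The distances between members were given by the root mean square of the differences between their 4 values, each less the gene's mean over the arrays. S100A6 and S100A10 were the closest pair at 0.06, followed by S100A4 and S100A6 at 0.07. These small distances describe genes that barely vary. Among all genes on the array, those closest to LCN2 were PLAC8 at 0.47, ALDH1A1, a retinaldehyde dehydrogenase, at 0.56, INHBE, an inhibin beta subunit, at 0.60, MAP2, a microtubule-associated protein, at 0.64 and C2CD4A at 0.73. All 5 stood between 3.26 and 4.02 on LhTERTL, against 4.51 for LCN2. Closest to S100A14 were ATP6V0D2, a subunit of the vacuolar proton pump, at 0.08, KIAA0319 at 0.11, ST6GALNAC1, a sialyltransferase, at 0.13, HOXB7 at 0.14 and SPMIP4 at 0.16. No gene lay within 0.25 of LCN2 or of S100A9, and 21 did of S100A14.

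For S100A9 the nearest were HSPA6, an inducible heat shock protein, at 0.29, the histone gene H2AC8 at 0.34, DDX60, an interferon-induced helicase, at 0.34, and the histone genes H2BC5 at 0.39 and H2BC11 at 0.43. HSPA6 read 1.12 in mock, 0.04 in mock/cre+, -0.04 in LhTERTL and -0.42 in LhTERTL/cre+. For S100P they were SLC3A2, the heavy chain of amino acid transporters, at 0.20, LURAP1L at 0.20, GFPT1, which starts hexosamine synthesis, at 0.22, NUCB2 at 0.24 and PRR15 at 0.25. These 5 stood between -1.75 and -1.38 on mock/cre+, against -1.61 for S100P. For S100A8 14151 genes lay within 0.25, so its neighbours are not informative. With 4 arrays, likeness is a description of these libraries.

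**Figure D3:**
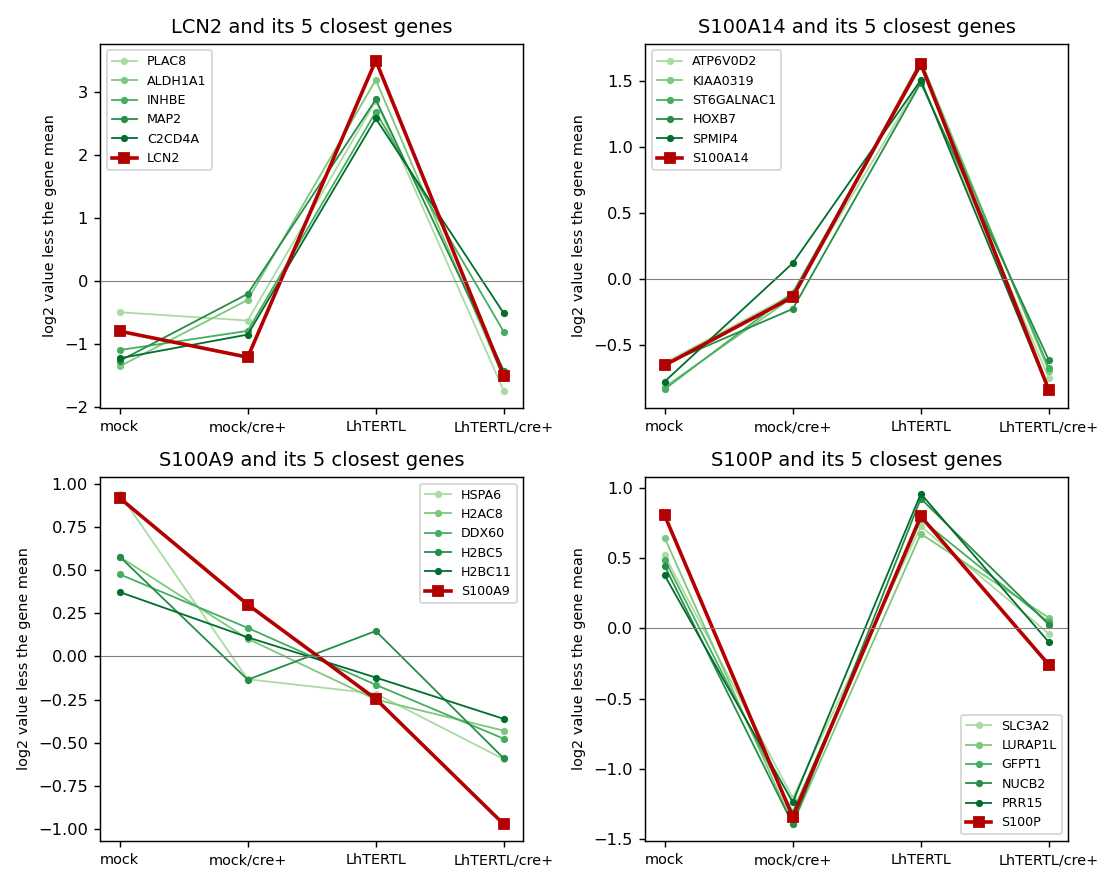
Log2 values on the 4 arrays, each less the gene's own mean, of LCN2, S100A14, S100A9 and S100P (red) and of the 5 genes at the smallest root mean square distance from each (green); lines only join the points of a gene. LCN2 and S100A14 and their neighbours peak on LhTERTL, S100P and its neighbours are lowest on mock/cre+, and the S100A9 set is highest on mock and lowest on LhTERTL/cre+.

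Position within the S100 cluster was set beside these patterns. In RefSeq order the 14 cluster genes measured run from S100A9 to S100A1, with S100A2, S100A16 and S100A14 next to each other. S100A16, between the other two, differed by 0.12 in LhTERTL minus mock where S100A2 differed by 1.22 and S100A14 by 2.29. S100A13, on the far side of S100A14, differed by 0.00. At the other end, S100A12 lies between S100A9 and S100A8 and read -0.23 and -0.02 in the 2 pairs, where S100A9 read -1.17 and -1.28. Of the 14 cluster genes 3 spanned at least 2-fold over the arrays (S100A9, S100A2 and S100A14, all members chosen for their values). None of the 10 genes before the cluster and none of the 10 after it did, where 7.16% of all genes do. The widest spans before and after the cluster were 0.68 and 0.51 on the log2 scale. With so few flanking genes, and cluster genes chosen for their values, these counts do not set the cluster apart.

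**Figure D4:**
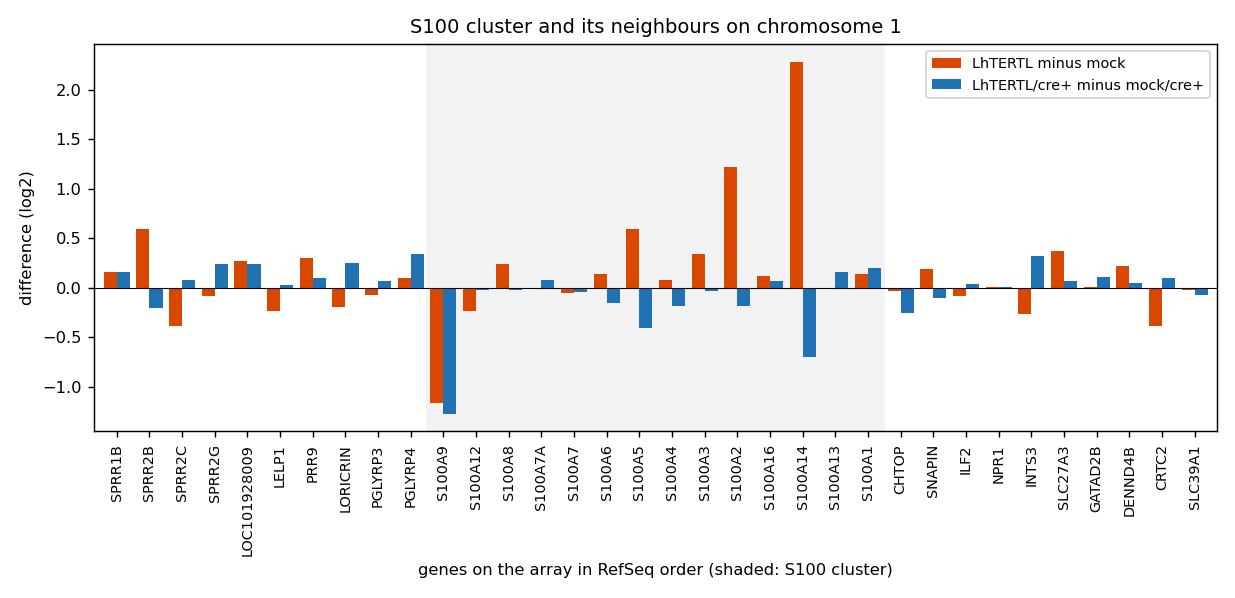
Difference between long- and short-telomere lines in each Cre-matched pair (log2) for 34 genes of chromosome 1 in RefSeq order, with the S100 cluster shaded. S100A9 is lower in both pairs, S100A2 and S100A14 are 1.22 and 2.29 higher in LhTERTL than in mock and not higher in the Cre-named pair, and S100A16 between them stays near 0.

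The genes around the members were read from lists of other S100 genes, receptors and binding partners, upstream cytokines and transcription factors, epithelial antimicrobial genes, the epidermal differentiation complex and iron handling, 83 measured genes in all. In the fit of long against short telomeres, 0 of the 83 passed (limma, two-sided, smallest adjusted p = 1), as did 0% of the 19775 genes tested, higher or lower. At an unadjusted p under 0.05 there was 1 listed gene, BDH2, against 156 of all genes. BDH2, a dehydrogenase proposed to make the mammalian siderophore that lipocalin 2 binds, differed by 0.35 in each pair and by 0.35 ± 0.12 on average (moderated SE, n = 2 per group). The median long minus short difference was 0.03 over the listed genes and -0.01 over all genes. On LhTERTL, 2 of the 83 stood at least 2-fold above every other array, IL6 and HMOX1, beside 0.839% of all genes. With so few genes and lists chosen with earlier results known, this count does not set the lists apart.

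None of the 11 other S100 genes was 2-fold apart in either Cre-matched pair. Of all genes, 3.09% were so in LhTERTL minus mock and 1.57% in the Cre-named pair. With shares this small, 0 of 11 does not set these genes apart. Of the lines with long telomeres, LhTERTL/cre+ lay 1.03 below LhTERTL on the log2 scale for S100A11, over 2-fold. S100A11, which sits with S100A10 apart from the main cluster, was the widest, at -0.15 in mock, 0.15 in mock/cre+, 0.71 in LhTERTL and -0.32 in LhTERTL/cre+, the same extremes as S100A14. S100A1, an activator of calcium handling in muscle, averaged 0.17 and S100G, a calcium carrier of the gut, -0.20 (long minus short), and 0 of the 11 passed the test.

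Among the 21 receptors and binding partners 0 passed the test. TLR4, a receptor for S100A8 and S100A9, read 0.30 in mock, -0.35 in mock/cre+, -0.57 in LhTERTL and 1.13 in LhTERTL/cre+, so its pairs went opposite ways at -0.87 and 1.48. Its 4 probe sets ran from -1.65 to -0.31 in LhTERTL minus mock and from 0.39 to 2.66 in the Cre-named pair. Not all of them thus reached 2-fold in either pair. In the long minus short difference they ran from -0.06 to 0.82. ANXA1, annexin A1, which binds S100A11, was highest on LhTERTL at 0.98 and lay between -0.18 and 0.02 on the other arrays. MYH9, the myosin heavy chain that S100A4 binds, was lower in both pairs, at -0.52 and -0.29.

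In the upstream list 0 of 15 genes passed. IL6, a cytokine that drives acute phase genes, stood at 2.27 on LhTERTL and -1.60 on LhTERTL/cre+, with mock at -0.11 and mock/cre+ at 0.11. IL1B, which raises LCN2 through NF-kappaB and its co-factor in many epithelia, was highest on LhTERTL/cre+ at 1.93 and stood at -0.52 on LhTERTL, where LCN2 was highest. The part of either cytokine in the LCN2 values was not tested. IL6R, the receptor subunit for IL6, read 0.31 and -0.93 in the 2 pairs.

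Of 13 epithelial antimicrobial and acute phase genes 0 passed. PI3, elafin, a protease inhibitor of inflamed epithelia, was lowest where LCN2 was highest, at 1.32 in mock, -0.13 in mock/cre+, -1.50 in LhTERTL and 0.13 in LhTERTL/cre+. CXCL1, a neutrophil-attracting chemokine, read -1.05 in LhTERTL minus mock and 0.76 in the Cre-named pair, and C3, the central complement component, 0.95 and -1.04; both were added after their values were seen. LTF, lactoferrin, averaged 0.18 and MUC1 0.23 (long minus short), and the 3 probe sets of MUC1 ran from 0.01 to 0.41. In the epidermal differentiation complex, the skin barrier genes beside the S100 cluster, 0 of 14 passed, and SPRR2B, at 0.59 and -0.20 in the 2 pairs, FLG2, at 0.30 and 0.16, and PGLYRP4, at 0.10 and 0.34, were the largest on average. Iron handling genes numbered 9 with 0 passing. HMOX1, which frees iron from heme, read 0.07 in mock, -0.72 in mock/cre+, 2.01 in LhTERTL and -0.07 in LhTERTL/cre+. SLC40A1, the iron exporter ferroportin, was lowest on LhTERTL/cre+ at -0.45 and stood between 0.02 and 0.17 elsewhere.

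**Figure D5:**
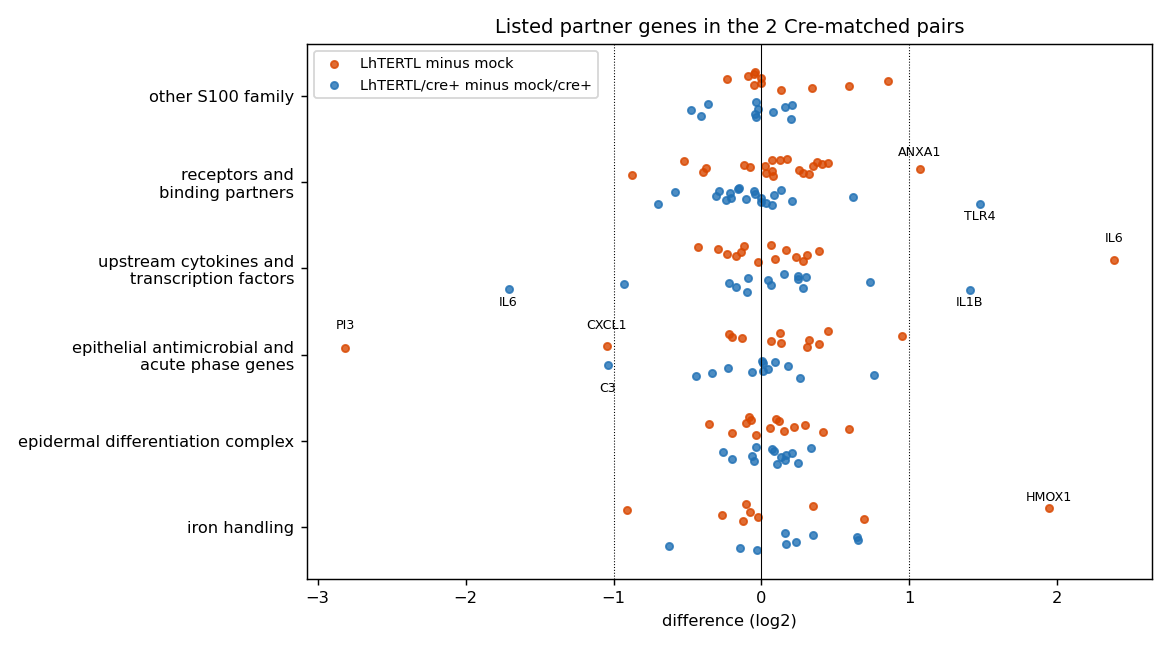
Difference between long- and short-telomere lines in each Cre-matched pair (log2) for the 83 listed genes, 1 point per gene and pair; genes at least 2-fold apart are named and dotted lines mark 2-fold. No other S100 gene and no gene of the epidermal differentiation complex reaches 2-fold. Of all genes, 3.09% do so in LhTERTL minus mock and 1.57% in the Cre-named pair. In LhTERTL minus mock IL6, HMOX1 and ANXA1 do so upward and PI3 and CXCL1 downward. In the Cre-named pair TLR4 and IL1B do so upward and IL6 and C3 downward.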

How the data were processed

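RNA of 4 PC-3 derivatives was measured on 1 array each; groups come from the labelled telomere length, and Cre status from the line names. The labels give no replicate cultures, so a p-value here reflects only how far these 4 samples spread. Per the submitters' processing notes, the deposited log2 values are RMA summaries, and the program behind them is not given in the labels. Every deposited row had a median of 0 (tolerance 1e-05), so levels are unknown and higher values were taken as higher expression. The number of arrays limits the precision.

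Of 54675 probe sets, 62 controls were left out; 41091 had 1 gene symbol, 1801 several and 11721 none, and 41037 were matched by Entrez number to RefSeq (GRCh38.p14). Genes are means of their probe sets. The telomere groups were set against each other in limma 3.58.1 under R 4.3.3 (lmFit, then eBayes without a trend), with Benjamini-Hochberg adjustment over all features at 0.05; the fit was tested on simulated data. The members and lists were chosen with earlier results of these data known. Named were all members, the 3 listed genes per list with the largest mean pair difference, any listed gene 2-fold apart in both pairs, and the 5 genes nearest to a member. Alternatives were a Cre block, array medians, a second quantile normalization (of the median-centred values), robust eBayes, other probe set choices and leaving out each array. Differences between single arrays are descriptions. RefSeq promoter sequences matched all 10 members. Python 3.11.15, numpy 2.4.6, pandas 2.3.3 and matplotlib 3.10.9 were used.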

Additional observations from a re-analysis of the deposited data

How the results depend on the processing

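No gene, probe set or listed gene was called in the main comparison or under any alternative run: Cre status as a block, array medians subtracted, a second quantile normalization, robust eBayes and leaving out each array, and for genes the probe set of highest SD and probe sets without a shared-sequence suffix (limma, 0 called each time). No paired analysis was possible by replicate number because the labels give none, and the Cre block stands in its place. The count of genes that differed by 2-fold or more, the same way, in both Cre-matched pairs was 7, with 66 at 1.5-fold and 0 at 3-fold; S100A9 was among them at 1.5-fold and 2-fold. For the long minus short difference of the 10 members, 39 values under other scalings and probe set choices held 0 changes of sign, and 1 moved by more than the spread within groups, S100A9 at -1.70 after a second quantile normalization. Of 40 values without 1 array, 8 changed sign. The range without single arrays was -0.50 to 4.51 for LCN2, -0.45 to 2.03 for S100A14, 0.00 to 1.03 for S100A2, -0.53 to 1.61 for S100P and -1.58 to -0.86 for S100A9. Groups without 1 array are not matched by Cre status, and the lone array of a group is assumed to vary like the other group. The cause of these changes was not tested.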
